A study of Mus musculus with 22 samples.

Results

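Intestinal sterol uptake and efflux was followed through 8 genes in a study of dietary fibre and perfluorooctanesulfonic acid (PFOS), a long-lived fluorinated surfactant, in mice. They are the uptake gene Npc1l1, the efflux genes Abcg5, Abcg8 and Abca1, the lipoprotein receptor gene Scarb1, the esterifying enzyme gene Soat2, the receptor gene Nr1h3 and the ligase gene Mylip. They were taken by their symbols, 8 of the 46603 genes in the deposited tables, and all 8 passed the filter on low counts that left 15763 genes to test. The RNA came from intestinal tissue of male wild-type C57BL/6 mice, an inbred strain, 7 weeks old when the diets began. Pectin_PFOS (4 libraries) and Pectin (4) ate pectin, Inulin_PFOS (3) and Inulin (3) ate inulin, and PFOS (4) and Control (4) ate cellulose, each for 7 weeks. Groups named with PFOS drank water that delivered 3 µg of it per kg body weight per day. All 6 groups shared an irradiated diet with 8% fibre by weight, in which fat gave 35%, protein 20% and carbohydrate 45% of the energy. The sample titles call the libraries biological replicates, but no source used here states that each came from its own animal, so p-values measure the spread between these samples.

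Enterocytes take cholesterol and plant sterols from the gut lumen through Npc1l1 and send much of the plant sterol back through a transporter made of an Abcg5 and an Abcg8 subunit. Cholesterol that stays is esterified by Soat2 and leaves in chylomicrons, or leaves through Abca1 towards high-density lipoprotein on the blood side. The liver X receptors, one of which Nr1h3 encodes, bind oxidised sterols and raise transcription of Abcg5, Abcg8, Abca1 and Mylip, whose product is a ubiquitin ligase that marks lipoprotein receptors for breakdown.

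The labels give no gut segment. Fabp6, the bile acid binding protein of the ileum, averaged 13271 TPM (the deposited per-length expression level) over the 22 libraries and ranged from 5074 to 20814 TPM. The ileal bile acid transporter gene Slc10a2 averaged 152 TPM, while the colon markers Car1, Aqp8 and Hoxb13 averaged 0.067, 0.023 and 0.003 TPM. Cyp7a1 of liver and Prss1 of pancreas were listed at 0 in every library. Library totals lay between 17613331 and 20261374 counts, with 12927 to 14935 genes detected at 10 or more counts and 2.85% to 14.9% of counts from mitochondrial genes. Pectin_PFOS replicate 1 had the fewest detected genes and the smallest TMM scaling factor (0.749), and Pectin replicate 4 had the lowest summed level of 8 enterocyte markers (5222 TPM). Calls of the 8 genes are given with and without these libraries.

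Abcg5 and Abcg8 are head-to-head neighbours on mouse chromosome 17 (GRCm38). Abcg5 (ENSMUSG00000040505) lies on the minus strand at chr17:84658234-84683011, and Abcg8 (ENSMUSG00000024254) on the plus strand at chr17:84676302-84700333. In RefSeq (GRCm38.p6) their main start sites are separated by 109 bases, chr17:84683012-84683120, printed here on the minus strand, 5′ to 3′, so that the last base adjoins the start of Abcg5. It is shown because both genes are read outward from it and their levels moved together.
Abcg5 and Abcg8 intergenic: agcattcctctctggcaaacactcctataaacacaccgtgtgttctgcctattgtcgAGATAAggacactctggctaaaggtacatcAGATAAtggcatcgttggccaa
The capitals mark the matches to AGATAA, the core of a GATA factor site, searched on both strands. These matches begin 52 and 22 bases before the Abcg5 start, and another lies on the opposite strand 13 bases after it. Of 27025 RefSeq promoter windows (250 bases before to 50 after a start), 11.4% held at least 1 such match, 1.18% at least 2 and 0.111% at least 3. The windows around the starts of Npc1l1, Abca1, Nr1h3 and Mylip held none, and a match is a description of these letters only. An annotated Abcg8 transcript starts farther upstream, inside Abcg5, so the gene spans overlap by 6710 bases. Their exons share 82 bases, 3.02% of the exonic bases of Abcg5 and 2.19% of those of Abcg8. The libraries were strand-specific, but whether the counting used strand is not given in the sources used here, so reads from the shared bases cannot be assigned with certainty. Of the other genes, Npc1l1 lies at chr11:6211013-6230143, Abca1 at chr4:53030787-53159895, Soat2 at chr15:102150526-102163474, Scarb1 at chr5:125277087-125341094, Nr1h3 at chr2:91184061-91202834 and Mylip at chr13:45389742-45412019.

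**Figure D1:**
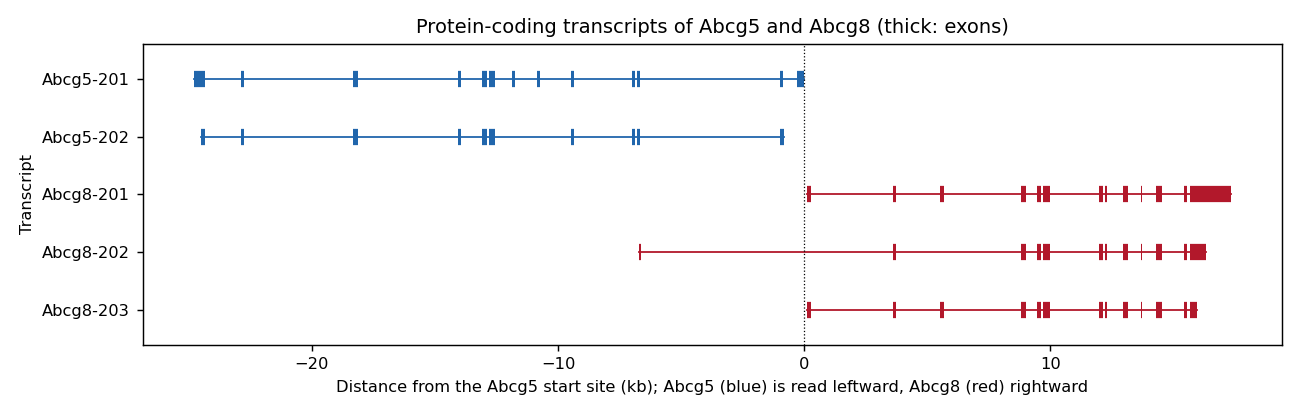
Protein-coding transcripts of Abcg5 (blue) and Abcg8 (red), 1 per row, against the distance from the Abcg5 start site in kb; thick blocks are exons and thin lines introns. The genes run in opposite directions from starts 109 bases apart, and 1 Abcg8 transcript begins inside Abcg5.

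The uptake and apical efflux genes were the most abundant of the 8. Npc1l1 averaged 247 TPM over the 22 libraries (range 72.5 to 399), Abcg5 159 TPM (60.9 to 347) and Abcg8 111 TPM (41.0 to 230.1). Soat2 averaged 58.1 TPM (27.8 to 103), Nr1h3 39.8 TPM (19.5 to 59.4) and Mylip 15.2 TPM (4.69 to 29.9). Abca1, with 2.77 TPM (0.85 to 6.48), and Scarb1, with 1.65 TPM (0.31 to 4.48), were low. Scarb1, whose product binds high-density lipoprotein, rested on 11 to 136 counts per library, so its values are the least precise. Soat2 exceeded its paralogue Soat1, which most tissues use, by a TPM ratio of 12.6 to 76.3 within libraries. Nr1h3 stood below Nr1h2, which encodes the other liver X receptor, in every library (TPM ratio 0.349 to 0.838).

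Between groups the order of mean levels, in CPM (read counts scaled by library size and TMM), differed by gene. Abcg5 and Abcg8 shared 1 order, highest in Pectin_PFOS (432 and 397 CPM), then PFOS, Inulin, Control and Inulin_PFOS, and lowest in Pectin (160.1 and 119 CPM). Npc1l1 was also highest in Pectin_PFOS (1379 ± 349 CPM, SD, n = 4) and lowest in Pectin (570.5 ± 223 CPM, n = 4). Soat2 was highest in Pectin_PFOS and lowest in Control, Scarb1 highest in PFOS and lowest in Inulin, and Nr1h3 highest in Inulin and lowest in PFOS. Abca1 was highest in Pectin_PFOS and Mylip in Inulin, and Abca1 was lowest in Inulin and Mylip in Inulin_PFOS. Most neighbours in these orders could not be separated: of 40 neighbouring pairs, the means of 6 lay farther apart than the larger SD, and the libraries of 2 did not overlap. Those 2 were Inulin_PFOS above Pectin for Abcg8 and Inulin above Inulin_PFOS for Nr1h3.

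**Figure D2:**
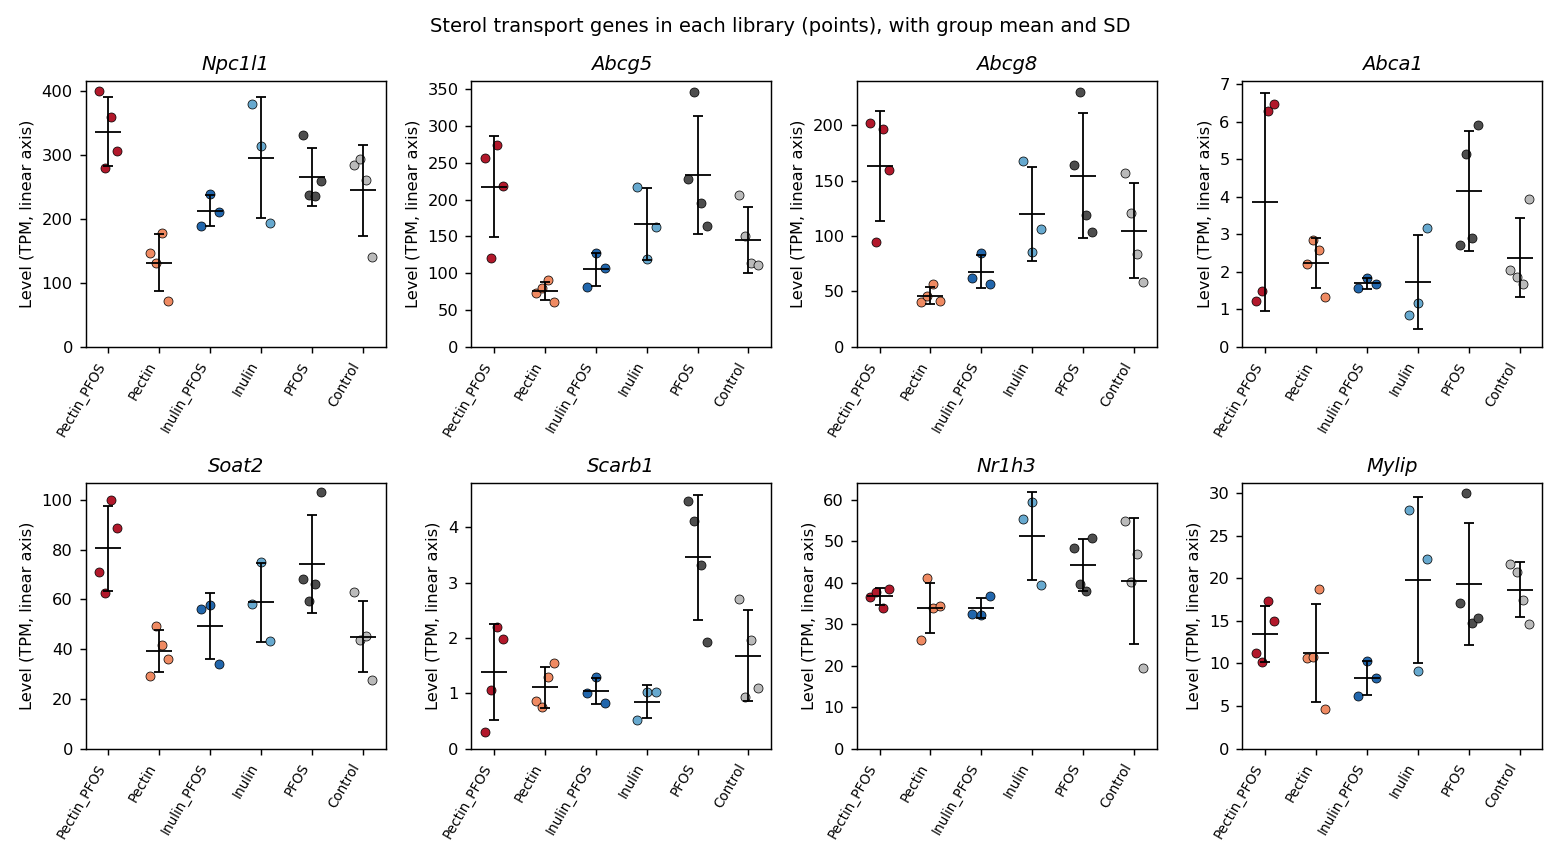
Level of the 8 genes in TPM (linear axes from 0) in each library (points), with group mean and SD (bar). Npc1l1, Abcg5 and Abcg8 have their highest or second-highest group mean in Pectin_PFOS and their lowest in Pectin.

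Of the comparisons of PFOS with no PFOS on 1 fibre, that of Pectin_PFOS with Pectin was the only one to call any of the 8 genes. Abcg5, Abcg8, Npc1l1 and Soat2 rose, and no gene of the 8 fell (edgeR's quasi-likelihood test, Benjamini-Hochberg adjusted p under 0.05). Of the 15763 genes tested, 20.8% were called in either direction and 11.4% were called higher in this comparison. These were 1790 genes higher and 1481 lower, a split that became 576 higher and 2386 lower when libraries were scaled by their totals alone; the median over all genes was then −0.27, against −0.06 with TMM. The libraries of the 4 genes did not overlap, which held for 12% of genes in the higher direction. In bulk RNA, fewer cells of a type and less RNA per cell cannot be told apart.

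Among the efflux genes, Abcg8 had 535, 219, 481 and 353 CPM in the Pectin_PFOS libraries, against 125, 118, 140.0 and 94.0 CPM in the Pectin libraries. Every Pectin_PFOS library stood above every Pectin library, with replicate 2 the lowest of its group. The log2 fold change was 1.74 ± 0.27 (SE; adjusted p = 0.00216), a fold of 3.33. Abcg5 had 579.5, 237, 542 and 371 CPM in Pectin_PFOS, against 181, 162, 187 and 111 CPM in Pectin. The same Pectin_PFOS library was lowest, and the groups again did not overlap (log2 fold change 1.43 ± 0.27, adjusted p = 0.00377, fold 2.70). Abca1, the basolateral exporter, had 11.8, 14.2, 61.0 and 44.3 CPM in Pectin_PFOS, against 25.6, 27.6, 26.1 and 8.94 CPM in Pectin. Its Pectin_PFOS libraries split into low and high values on both sides of most Pectin libraries, and it did not pass (0.58 ± 0.54, adjusted p = 0.46).

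The uptake gene Npc1l1, the target of ezetimibe, moved in the same direction as the efflux pair. It had 1833, 1121, 1471 and 1090.3 CPM in Pectin_PFOS, against 723, 538, 752 and 268 CPM in Pectin, with no overlap (1.27 ± 0.27, adjusted p = 0.00563, fold 2.42). The TPM ratio of Abcg5 to Npc1l1 was 0.434 to 0.761 in Pectin_PFOS and 0.504 to 0.839 in Pectin, with overlapping ranges. Soat2 had 152, 117, 190.3 and 147 CPM in Pectin_PFOS, against 68.4, 95.3, 82.8 and 62.4 CPM in Pectin (0.97 ± 0.23, adjusted p = 0.00967, fold 1.96). Its groups did not overlap either. The other genes did not pass: Nr1h3 gave a log2 fold change of 0.07 ± 0.17, Mylip of 0.17 ± 0.36 and Scarb1 of 0.24 ± 0.41 (adjusted p = 0.812, 0.764 and 0.695).

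The 4 calls held without any 1 of the 22 libraries and under 6 other settings, with a highest adjusted p of 0.0181 for Abcg5, 0.0124 for Abcg8, 0.0263 for Npc1l1 and 0.0353 for Soat2. Without Pectin replicate 4 the log2 fold changes were 1.29 for Abcg5, 1.64 for Abcg8, 1.04 for Npc1l1 and 0.88 for Soat2. Without Pectin_PFOS replicate 1 they were 1.26, 1.56, 1.11 and 0.97 in the same order, and under library totals 1.24, 1.53, 1.10 and 0.78. All 8 log2 fold changes were positive, as were those of 46.4% of all genes, but Nr1h3 was negative when scaled by library totals (−0.15), Scarb1 without Pectin_PFOS replicate 3 (−0.09) and Mylip without Pectin replicate 4 (−0.12). Their median was 0.77, against −0.06 over all genes tested.

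Markers of other cell types moved in the same comparison. All 10 stromal markers (collagen, fibroblast and smooth muscle genes) had negative log2 fold changes (median −1.04), and 4 of them fell. Their summed level was 325 to 864 TPM in Pectin_PFOS and 840 to 1875 TPM in Pectin, with a narrow overlap. Of 8 enterocyte markers, Vil1, Alpi and Treh rose and none fell (median 0.60), while the summed level overlapped, at 16246 to 27250 TPM in Pectin_PFOS and 5222 to 52805 TPM in Pectin. All 8 myeloid markers were negative and 1 fell, Cd163, and of 4 adipocyte markers Lep fell. Of 5 ileum markers none passed, all with positive values (median 1.01). Of 8 proximal small intestine markers 5 were positive (median 0.19), and none passed. Without Pectin replicate 4 the summed enterocyte level in Pectin was 24078 to 52805 TPM and the stromal one 840 to 1644 TPM, and without Pectin_PFOS replicate 1 the stromal sum in Pectin_PFOS was 660.4 to 864 TPM. The marker calls and medians were not refitted without these libraries. Library measures also separated the groups. Mitochondrial genes gave 2.85%, 3.10%, 3.51% and 3.46% of counts in Pectin_PFOS, the lowest 4 of the 22 libraries, against 6.43%, 7.36%, 3.88% and 5.86% in Pectin. Genes with 10 or more counts numbered 12927 to 14385 in Pectin_PFOS and 14403 to 14935 in Pectin, without overlap. The part of these cell types and library measures in the sterol gene results was not tested.

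On inulin the PFOS comparison gave no call. In Inulin_PFOS against Inulin, 0 of the 8 genes passed edgeR's quasi-likelihood test, where 0.159% of all genes were called, and 0 passed DESeq2's Wald test. An unadjusted p under 0.05 in edgeR's test was found for 2 of the 8 and for 18.8% of all genes. Abcg8 had 168, 206 and 161 CPM in Inulin_PFOS, against 372, 197 and 264 CPM in Inulin (−0.64 ± 0.30, unadjusted p = 0.0477, adjusted p = 0.262). Mylip had 19.0, 27.8 and 24.5 CPM in Inulin_PFOS, against 65.2, 21.9 and 61.7 CPM in Inulin (−1.06 ± 0.42, unadjusted p = 0.0187, adjusted p = 0.189). For both genes Inulin replicate 2 lay within the Inulin_PFOS values, and the other Inulin libraries lay above them. Nr1h3 was the only one of the 8 whose groups did not overlap, with 53.5, 48.0 and 58.2 CPM in Inulin_PFOS and 67.1, 78.3 and 59.3 CPM in Inulin (−0.36 ± 0.20, adjusted p = 0.334), which 12.1% of genes also showed in the lower direction. The others ranged from −0.40 ± 0.31 for Abcg5 to 0.39 ± 0.48 for Scarb1. All 10 stromal markers (median 1.07) and all 8 myeloid markers (median 1.17) were positive here, none past the threshold. Negative values held for 7 of 8 enterocyte (median −0.30) and 7 of 8 proximal small intestine markers (median −0.87). Of 5 ileum markers 3 were negative (median −0.36), and none of these passed either. The part of all these markers in the values was not tested.

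On cellulose PFOS gave no call either. In PFOS against Control, 0 of the 8 genes and 0% of all genes passed edgeR's test, and 0 of the 8 passed DESeq2's test. With edgeR, 5.35% of all genes and 1 of the 8 had an unadjusted p under 0.05. That gene was Soat2, with 83.7, 83.8, 94.1 and 164 CPM in PFOS and 82.5, 70.5, 76.3 and 59.9 CPM in Control (0.56 ± 0.23, unadjusted p = 0.0252, adjusted p = 0.822). Its groups did not overlap, as for 1.14% of genes in the higher direction, but the lowest PFOS and highest Control values were close and replicate 4 of PFOS stood far above the others. Without single libraries the log2 fold change lay between 0.30 and 0.68. Scarb1 had the largest value of the 8, 0.82 ± 0.40 (adjusted p = 0.822), with 6.14, 6.55, 5.43 and 3.40 CPM in PFOS against 4.05, 1.70, 3.79 and 2.66 CPM in Control. PFOS replicate 4 lay within the Control values. The others ranged from −0.18 ± 0.35 for Mylip to 0.44 ± 0.27 for Abcg5.

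**Figure D3:**
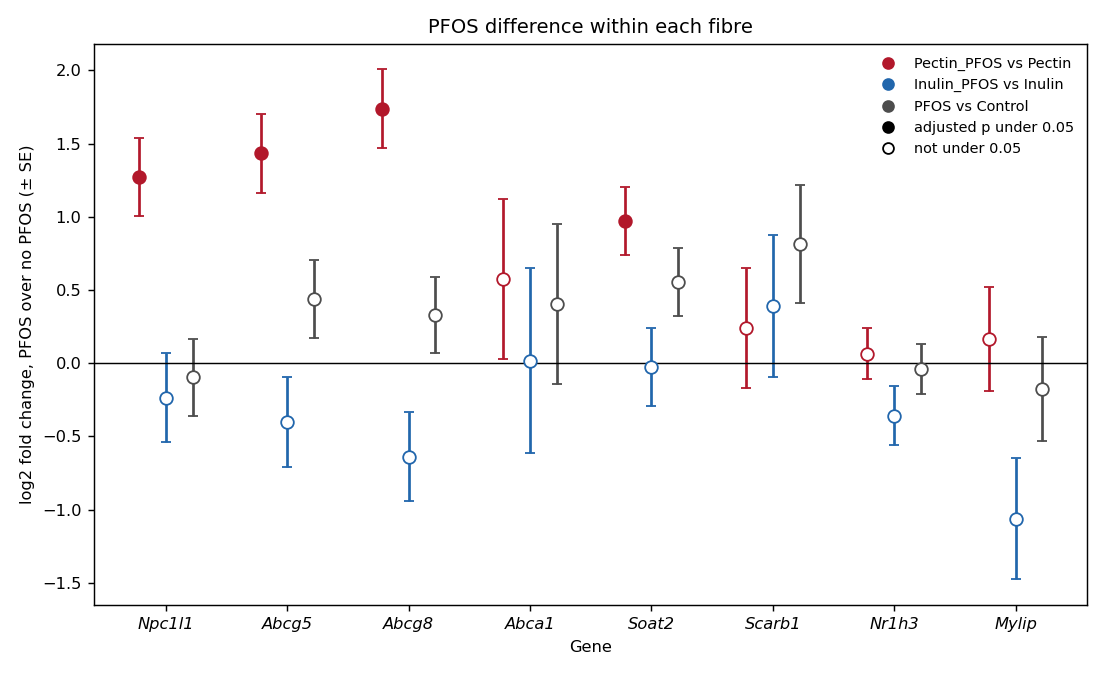
Log2 fold change (± SE) of the 8 genes for PFOS over no PFOS on pectin (red), inulin (blue) and cellulose (grey); filled points have an adjusted p under 0.05. The filled points are Npc1l1, Abcg5, Abcg8 and Soat2 on pectin, at 1.27, 1.43, 1.74 and 0.97.

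Whether the PFOS difference depended on the fibre was tested directly. Against cellulose, the PFOS effect on pectin was larger by 1.41 ± 0.37 (log2) for Abcg8 and 1.37 ± 0.37 for Npc1l1, yet 0 of the 8 genes and 0% of all genes passed edgeR's test (adjusted p = 0.266 for both). For Abcg5 the difference was 1.00 ± 0.38 (adjusted p = 0.319), and 3 of the 8 had an unadjusted p under 0.05. The rest ranged from −0.57 for Scarb1 to 0.42 for Soat2. DESeq2's Wald test called Abcg8 and Npc1l1 (adjusted p = 0.0223 for both), so this call depended on the tool. Over all genes DESeq2 called 137 here, 134 of them higher. In this pectin test 7 of 8 enterocyte markers were positive (median 0.80). Negative values held for 9 of 10 stromal (median −0.72) and 7 of 8 myeloid markers (median −0.76). None of these markers passed edgeR's test, and their part was not tested. For inulin against cellulose all 8 differences were negative, from −0.14 for Npc1l1 to −0.97 ± 0.40 for Abcg8, except that Npc1l1 turned positive without Inulin replicate 1 (0.0038) and Abca1 without Inulin replicate 3 (0.49). Over all genes 53.3% of these differences were positive. All 10 stromal markers (median 1.52) and all 8 myeloid markers (median 1.47) were positive in this test, none past the threshold. Negative values held for 6 of 8 proximal small intestine (median −2.21) and 4 of 5 ileum markers (median −0.485), again without a call. The part of all these markers was not tested. None of the 8 and 0% of all genes passed edgeR's or, for the 8, DESeq2's test. With edgeR, 1 of the 8 and 19.7% of all genes had an unadjusted p under 0.05. Averaged over the 3 diets, 0 of the 8 passed, 3 had an unadjusted p under 0.05, and 0.159% of all genes were called. Soat2 came closest, with 0.50 ± 0.14 (adjusted p = 0.158, and 0.0474 with DESeq2), and the rest ranged from −0.36 for Mylip to 0.49 for Abcg5.

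A contrast of the PFOS effect on pectin with that on inulin was added after the values were seen. It called 4 of the 8, all higher, where 25.4% of all genes were called and 13.1% were called higher. The difference was 2.38 ± 0.41 for Abcg8 (adjusted p = 0.00376), 1.84 ± 0.41 for Abcg5 (adjusted p = 0.007), 1.51 ± 0.40 for Npc1l1 (adjusted p = 0.0138) and 1.00 ± 0.35 for Soat2 (adjusted p = 0.0424). Abcg5 and Abcg8 passed under all 28 other settings run, Npc1l1 under 27, failing without Inulin replicate 1 (adjusted p = 0.0503), and Soat2 under 16. Soat2 failed without 9 single libraries, spread over Inulin, Inulin_PFOS, Pectin and Pectin_PFOS, with adjusted p up to 0.116, and also with the replicate block (adjusted p = 0.0535), under library totals (adjusted p = 0.105) and with no filter (adjusted p = 0.0574). The other genes ranged from −0.15 ± 0.63 for Scarb1 to 1.23 ± 0.55 for Mylip (adjusted p = 0.101), which passed without Inulin replicate 2 (adjusted p = 0.0334) or Pectin replicate 3 (adjusted p = 0.0358). In this contrast all 10 stromal markers and 6 of 8 myeloid markers were called lower and 3 of 8 enterocyte markers higher. Of the markers of gut position, 2 of 8 for proximal small intestine (median 1.63) and 1 of 5 for ileum (median 0.99) were called higher. The part of all these markers in the result was not tested.

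The fibres were also compared at equal PFOS. In Pectin against Control, 0 of the 8 passed edgeR's test where 1.99% of all genes were called. The unadjusted p was under 0.05 for 3 of the 8 and for 18.3% of all genes. Abcg8 had 125, 118, 140.0 and 94.0 CPM in Pectin, against 279, 247, 202 and 179 CPM in Control, with no overlap (−0.93 ± 0.26, adjusted p = 0.0691), and DESeq2 called it (adjusted p = 0.0231). Abcg8 also passed edgeR's test without Control replicate 4 (adjusted p = 0.0495) or without Pectin_PFOS replicate 2 (adjusted p = 0.0481). Abcg5 had 181, 162, 187 and 111 CPM in Pectin, against 279, 253, 201 and 247 CPM in Control, again all higher in Control (−0.61 ± 0.27, adjusted p = 0.22). Such a lack of overlap in the lower direction held for 4.29% of all genes. Npc1l1 gave −0.57 ± 0.26 (adjusted p = 0.251), and the rest ranged from −0.44 for Mylip to 0.09 for Soat2. All 10 stromal markers were negative here (median −0.41), none past the threshold, and 7 of 8 myeloid markers were positive (median 0.79), 1 of them called. Negative values also held for 6 of 8 enterocyte (median −0.12) and 4 of 5 ileum markers (median −0.13), without a call. In Inulin against Control, 0 of the 8 and 0% of all genes passed edgeR's test, and 0 of the 8 passed DESeq2's. With edgeR, 20.7% of all genes and 1 of the 8, Nr1h3, had an unadjusted p under 0.05 (0.46 ± 0.19, adjusted p = 0.173). Soat2 had 94.3, 127 and 83.9 CPM in Inulin, just clear of the 82.5, 70.5, 76.3 and 59.9 CPM in Control, a separation seen in 3.7% of genes in the higher direction (0.49 ± 0.25, adjusted p = 0.261). The others ranged from −0.83 ± 0.46 for Scarb1 to 0.36 ± 0.28 for Npc1l1. All 10 stromal (median −1.34) and all 8 myeloid markers (median −0.30) were negative, none past the threshold. Positive values held for 6 of 8 enterocyte (median 0.31) and all 5 ileum markers (median 0.52), again without a call. The part of these markers in either comparison was not tested.

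Under PFOS, Npc1l1 was higher on pectin than on cellulose. It had 1833, 1121, 1471 and 1090.3 CPM in Pectin_PFOS, against 867, 716, 712 and 875 CPM in PFOS, with no overlap (0.80 ± 0.26, adjusted p = 0.0438). It was the only call of the 8 in Pectin_PFOS against PFOS, where 16% of all genes were called, 7.69% higher, and 12% did not overlap in the higher direction. This call was lost without any of 12 single libraries, among them each PFOS library and Pectin_PFOS replicates 1 to 3, with adjusted p up to 0.15 without Pectin_PFOS replicate 1. It was also lost under library totals (0.39, adjusted p = 0.211), where the median over all genes was −0.41, and with no filter (adjusted p = 0.0598). Soat2 gave 0.51 ± 0.23 (adjusted p = 0.129), and passed without PFOS replicate 4 (0.81, adjusted p = 0.0234). Scarb1 gave −0.91 ± 0.40 (adjusted p = 0.125), and the rest ranged from −0.10 for Mylip to 0.48 for Abcg8. All 10 stromal markers were negative (median −1.12) and 4 of them fell. Of 8 myeloid markers 6 were positive (median 0.07), while 1 fell. Of 8 enterocyte markers 7 were positive (median 0.52) and 1 rose. The part of all these markers was not tested.

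In Inulin_PFOS against PFOS, 0 of the 8 passed edgeR's or DESeq2's test, and edgeR called 2.65% of all genes. The unadjusted p of edgeR's test was under 0.05 for 2 of the 8 and for 20.5% of all genes. Abcg5, Abcg8, Scarb1 and Mylip were lower without overlap, as were 14.1% of all genes. Abcg5 had 184, 250.1 and 235 CPM in Inulin_PFOS, against 283, 493, 279 and 269.9 CPM in PFOS (−0.57 ± 0.29, adjusted p = 0.271). Abcg8 had 168, 206 and 161 CPM in Inulin_PFOS, against 268, 416, 231 and 224 CPM in PFOS (−0.68 ± 0.29, adjusted p = 0.187). Scarb1 had 2.38, 2.43 and 1.95 CPM in Inulin_PFOS, against 6.14, 6.55, 5.43 and 3.40 CPM in PFOS (−1.25 ± 0.45, adjusted p = 0.123), and passed when these groups were fitted alone (adjusted p = 0.0222). For Mylip the gap was narrow, with 19.0, 27.8 and 24.5 CPM in Inulin_PFOS, against 30.1, 60.4, 29.8 and 34.8 CPM in PFOS (−0.71 ± 0.39, adjusted p = 0.32). The others ranged from −0.80 ± 0.60 for Abca1 to 0.22 ± 0.28 for Npc1l1. Of 8 proximal small intestine markers 7 were negative (median −1.79) and 1 fell. Of 5 ileum markers 3 were positive (median 0.07), while 1 fell. Positive values held for 7 of 8 myeloid (median 1.06), 7 of 10 stromal (median 0.20) and 5 of 8 enterocyte markers (median 0.14), none past the threshold. The part of all these markers was not tested. Scaled by library totals, Abcg8 passed (adjusted p = 0.0407), while the median over all genes was −0.33.

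Abcg5 and Abcg8 followed each other closely from library to library. After the group means were removed, their log2 CPM correlated over the 22 libraries with Pearson's r = 0.92 (permutation p = 6e-05) and Spearman's rho = 0.92 (permutation p = 3e-05), with adjusted p of 0.00168 and 0.00084 over 28 pairs. Without the 2 libraries farthest from the median of Abcg5, r was 0.83. The TPM ratio of Abcg5 to Abcg8 was 1.49 ± 0.20 (SD, n = 22) and stayed between 1.25 and 1.90, while each gene's level varied more than 5-fold (ratios of highest to lowest 5.70 and 5.62). The ratio was 1.27 to 1.39 in Pectin_PFOS and 1.48 to 1.80 in Pectin, ranges that did not touch; the difference was not tested. Mylip was correlated with both (r = 0.77 with Abcg5, adjusted p = 0.00504, and r = 0.66 with Abcg8, adjusted p = 0.00551; rho = 0.82 and 0.72), and without the 2 farthest libraries r was 0.80 and 0.63. These 3 were the only pairs with an adjusted p under 0.05, by Pearson or Spearman, and the next was Soat2 with Nr1h3 (r = 0.53, adjusted p = 0.0965). The lowest values were Npc1l1 with Scarb1 (r = −0.43), Abca1 with Nr1h3 (r = −0.34) and Scarb1 with Nr1h3 (r = −0.24), none of which passed.

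**Figure D4:**
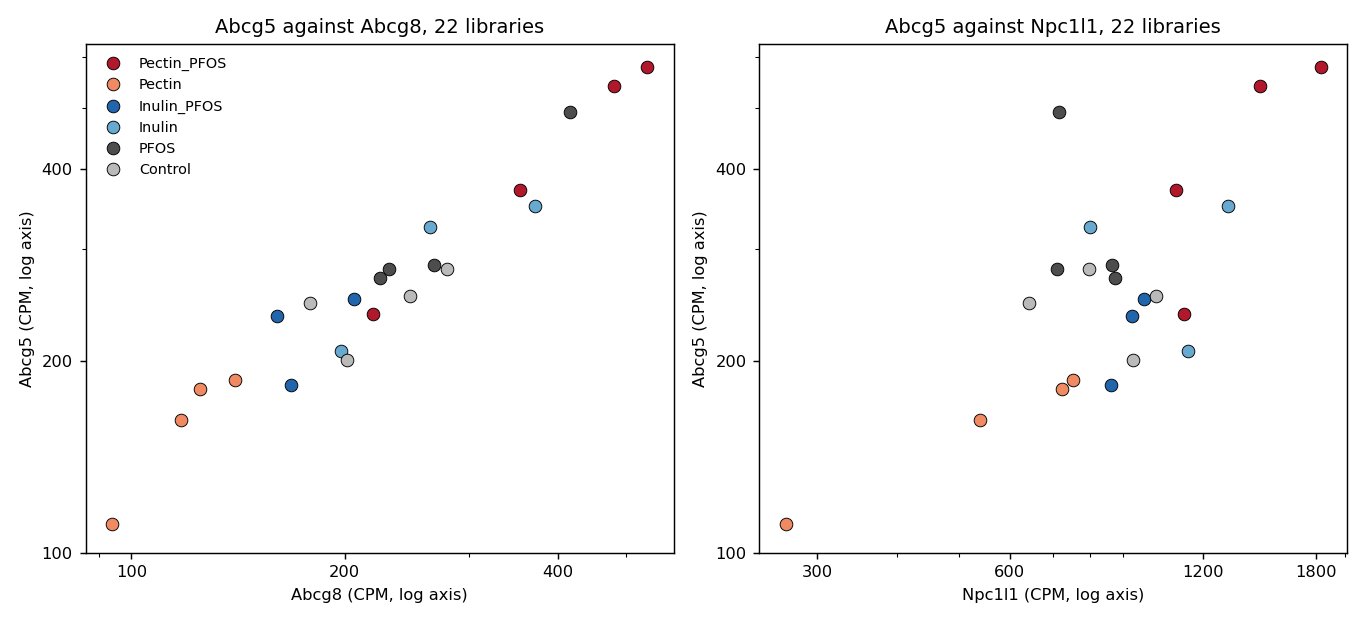
Abcg5 against Abcg8 (left) and against Npc1l1 (right) in CPM on log axes, 1 point per library, coloured by group. Abcg5 and Abcg8 fall along a line in all 6 groups, whereas PFOS replicate 2, at 493 CPM of Abcg5, departs from the trend with Npc1l1.

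Of the relations with tissue markers, 3 passed, and they depended on single libraries and on the scaling. Within groups, Npc1l1 and Mylip correlated with the mean log2 CPM of 8 enterocyte markers (r = 0.83 and 0.75, adjusted p = 0.0424 for both over 24 relations; rho = 0.74 and 0.66). Abca1 correlated with 8 proximal small intestine markers (r = 0.65, adjusted p = 0.0424; rho = 0.67). With Spearman's rho, Npc1l1 alone passed (adjusted p = 0.0341). Without the 2 libraries farthest from the median of the marker mean, r was 0.56 for Npc1l1, 0.45 for Mylip and 0.72 for Abca1. Leaving out single libraries left 0 to 6 such relations, and 0 remained without any of 8 libraries, Pectin replicate 4 among them, or under library totals. Abcg5 and Abcg8 had r = 0.57 and 0.45 with the enterocyte markers and −0.41 and −0.52 with the stromal markers, none of them past the threshold.

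The genes whose log2 CPM was most like each of the 8 over the 22 libraries were sought among 12604 genes, as a description, since the libraries share groups and tissue makeup. For Abcg5 they were Abcg8 (r = 0.96), Rnf208 (0.89) and Kalrn (0.89), and for Abcg8 they were Abcg5, Wdtc1 (0.92) and Siae (0.91). Npc1l1 was most like Cyp4f14 (0.94), Grina (0.93) and Slc41a2 (0.91), and Soat2 most like D5Ertd579e (0.93), Scamp5 (0.92) and Tvp23a (0.91). Mylip was most like Creb3l3 (0.90), which encodes a transcription factor of liver and gut lipid metabolism, Bhlhe40 (0.83) and the brush-border peptidase gene Mme (0.83). Scarb1 was most like Col6a4 (0.91) and the endothelial genes Vwf (0.91) and Flt1 (0.91). Nearest to Abca1 were Dusp6, Rragd and Stab1 (each 0.76), and to Nr1h3 they were Nmnat1 (0.78), Dnaaf1 (0.76) and Ocel1 (0.75), so these last 2 had no close match.

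Other genes of the pathway were counted from 4 lists. In Pectin_PFOS against Pectin, 4 of 10 liver X receptor partners and targets rose, 4 of 13 genes of sterol transfer and esterification, 1 of 10 sterol regulatory (SREBP2) targets and 2 of 7 genes of lipoprotein assembly, and none of these 40 fell. Over all genes 11.4% were called higher in this comparison, so the share of SREBP2 targets was near that of all genes. The median log2 fold changes of the lists were 0.05, 0.49, 0.51 and 0.49, against −0.06 over all genes.

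Among the liver X receptor partners and targets, Srebf1, a regulator of fatty acid synthesis, rose to 16.2 TPM in Pectin_PFOS, against 8.72 TPM in Pectin (0.76 ± 0.17, adjusted p = 0.00707). Lpcat3, which remodels phospholipids, rose by 0.82 ± 0.22 on the log2 scale (adjusted p = 0.014), Rxra, which encodes the partner receptor, by 0.62 ± 0.19 (adjusted p = 0.0256) and Nr1h2 by 0.54 ± 0.14 (adjusted p = 0.015). The other transporter of the list, Abcg1, gave −0.04 ± 0.43 (adjusted p = 0.952). Of the 10 genes of this list 5 were negative, none past the threshold. The lowest were Apoe (−0.76 ± 0.35, adjusted p = 0.125) and Pltp (−0.75 ± 0.27, adjusted p = 0.0555). In the transfer list Gramd1b, which carries cholesterol from the plasma membrane to the endoplasmic reticulum, rose to 40.6 TPM in Pectin_PFOS, against 16.4 TPM in Pectin (1.26 ± 0.33, adjusted p = 0.0136). Lima1, which helps return Npc1l1 to the cell surface, rose by 0.71 ± 0.19 (adjusted p = 0.0144). Npc1, the lysosomal exporter, rose by 0.75 ± 0.24 (adjusted p = 0.0339) and the endosomal transfer gene Stard3 by 0.62 ± 0.17 (adjusted p = 0.0173). Soat1 gave −0.26 ± 0.29 (adjusted p = 0.533).

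Of the SREBP2 targets, Srebf2, which encodes SREBP2 itself, rose by 0.91 ± 0.26 (adjusted p = 0.0223). Of the assembly genes, Dgat1, which makes triglyceride, and Mttp, which loads it onto apolipoprotein B, rose by 0.92 ± 0.26 and 0.91 ± 0.29 (adjusted p = 0.0187 and 0.0321). Without single libraries, Srebf1, Gramd1b and Lima1 stayed called in all 22 omissions, while the other 8 were each lost in 1 to 5. All of these 8 except Dgat1 were lost without Pectin_PFOS replicate 1. Scaled by library totals, 9 of these 11 were lost, all but Lpcat3 and Gramd1b.

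**Figure D5:**
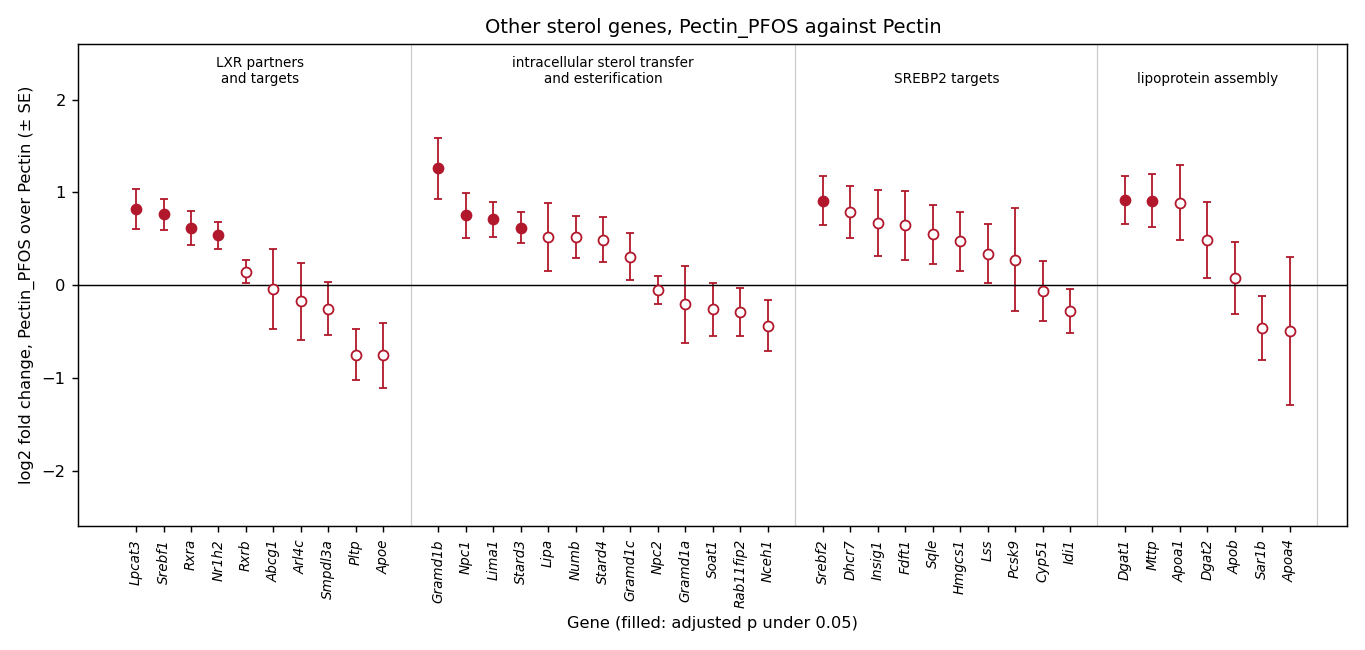
Log2 fold change (± SE) of the 40 other sterol genes in Pectin_PFOS over Pectin, by list and ordered by value; filled points have an adjusted p under 0.05. The 11 filled points all lie above 0, from 0.54 for Nr1h2 to 1.26 for Gramd1b.

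In the other comparisons few of the 40 passed: 5 in Pectin_PFOS against PFOS, 3 in Inulin_PFOS against PFOS and 1 in Inulin_PFOS against Inulin, where 16%, 2.65% and 0.159% of all genes were called. The first of these shares is no larger than that of all genes. Nceh1, which hydrolyses cholesteryl ester, fell in Pectin_PFOS against PFOS, with 1.64 TPM in Pectin_PFOS and 6.29 TPM in PFOS on average (−1.44 ± 0.28, adjusted p = 0.00326), and kept this call in all 22 omissions. It also fell in Inulin_PFOS against PFOS (−1.30 ± 0.30, adjusted p = 0.0246) and in Inulin_PFOS against Inulin (−1.57 ± 0.32, adjusted p = 0.0441), calls that held in 16 and 11 of 22 omissions. The first comparison for Nceh1 shares the PFOS libraries with the second, and the third shares the Inulin_PFOS libraries with it. Mttp (1.26 ± 0.29), Sqle (1.07 ± 0.32), Smpdl3a (0.90 ± 0.29) and Lpcat3 (0.75 ± 0.22) rose in Pectin_PFOS against PFOS, and Mttp alone of these held in all 22 omissions. Smpdl3a (1.20 ± 0.30) and Npc2 (0.69 ± 0.16) rose in Inulin_PFOS against PFOS, in 16 and 17 of the 22. No gene of the 40 passed edgeR's test in PFOS against Control, Inulin against Control, Pectin against Control, the averaged PFOS effect or the tests of PFOS with each fibre against cellulose. In the added contrast of pectin with inulin, 12 were called higher and 3 lower, namely Pltp, Apoe and Smpdl3a, all of the list of liver X receptor targets. Over all genes 13.1% were called higher and 12.3% lower in that contrast. Pltp kept its call in 15 of 22 omissions, Apoe in 13 and Smpdl3a in 6, while the 12 called higher kept theirs in 12 to 22.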

How the data were processed

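The labels' protocols describe strand-specific DNBSEQ libraries from intestinal RNA purified on columns. HISAT, Bowtie2 and the build GRCm39 are named in the submitters' processing notes without a role; the coordinates in the deposited tables match GRCm38, since 38860 of 46005 shared genes have the same ends as in GENCODE M21. Which program counted reads, and whether by strand, is not given in the sources used here. The authors deposited expected counts (estimated counts, 9.97% to 11.3% of the nonzero values fractional) and TPM values per gene, also estimated by the authors. Groups were taken from sample titles, because PFOS appears in a treatment field even of unexposed samples.

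Expected counts were rounded to whole numbers, filtered with filterByExpr, scaled by TMM and fitted for all 22 libraries and 6 groups at once with edgeR 4.0.16 (R 4.3.3, limma 3.58.1, prior count 2) by the robust quasi-likelihood test. P-values are two-sided and adjusted by Benjamini-Hochberg over 15763 genes in each of 10 comparisons and 1 added later, with calls at an adjusted p under 0.05. Standard errors were derived as |log2 fold change|/√F. The biological coefficient of variation was 31.9%. DESeq2 1.42.0, other scalings, no filter, separate fits, a replicate block and leaving out each library were alternatives. Correlations used log2 CPM centred on group means with 100000 permutations within groups. Tables and plots used numpy 2.4.6, pandas 2.3.3 and matplotlib 3.10.9. The fits were tested on simulated data.

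The members and lists were chosen with earlier results of these data known. All 8 genes were named in each comparison, in full where they passed or their groups did not overlap, with up to 4 called genes per list, by p, and the 3 most similar genes for each. Promoter windows came from RefSeq and matched 6 of the 8 genes (not Soat2 and Scarb1). Some genes of the lists are not reported here.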

Additional observations from a re-analysis of the deposited data

Results flagged for a closer look

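Single libraries stood apart within their groups for 5 of the 8 genes. Of 32 groups of 4 libraries examined with Dixon's criterion, 6 held such a library. The criterion is set to pass about 1 in 20 by chance. The same libraries recur for every gene, so the 6 are not independent and cannot be read as an excess over that rate. PFOS replicate 2 was high for Abcg5 (493 CPM) and for Mylip (60.4 CPM), and PFOS replicate 4 was high for Soat2 (164 CPM). Abca1 was high in Control replicate 4 (42.8 CPM) and low in Pectin replicate 4 (8.94 CPM). Nr1h3 was high in Pectin replicate 2 (60.2 CPM).

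The PFOS effect differed between pectin and inulin for 4 genes, in a contrast chosen after the values were seen and tested with edgeR. The difference of log2 fold changes was 2.38 for Abcg8, 1.84 for Abcg5, 1.51 for Npc1l1 and 1.00 for Soat2.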

How the results depend on the processing

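The calls of Abcg5, Abcg8, Npc1l1 and Soat2 in Pectin_PFOS against Pectin held under all 28 alternatives. So did those of Abcg5 and Abcg8 for pectin minus inulin. The calls of Npc1l1 and Soat2 in that contrast and of Npc1l1 in Pectin_PFOS against PFOS were lost under some alternatives, and the cause was not tested. Abca1 and Scarb1 rest on as few as 116 and 11 counts per library, which limits their precision.

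Over all genes, DESeq2 called 1 in PFOS against Control (0 with edgeR), 497 in Inulin_PFOS against Inulin (25), 783 in Inulin against Control (0), 855 in Pectin against Control (313), 1110 in Inulin_PFOS against PFOS (417), 657 in the inulin interaction (0), 137 in the pectin interaction (0) and 214 for PFOS averaged over 3 diets (25). Of the 8 genes it called 1 in Pectin against Control, 2 in the pectin interaction and 1 for averaged PFOS, against 0 each with edgeR. Fitting only the groups compared gave 0 genes in Inulin_PFOS against Inulin, 48 in Pectin against Control and 1623, with 1 of the 8, in Inulin_PFOS against PFOS. No such fit exists for averaged PFOS, which uses every group. Library totals gave 126 in Pectin against Control, 998, with 1 of the 8, in Inulin_PFOS against PFOS, 3829, with 0 of the 8, in Pectin_PFOS against PFOS (2525 with TMM), and 15 for averaged PFOS. With no filter, 167 genes passed in Pectin against Control and 0 of the 8 in Pectin_PFOS against PFOS. Of the marker relations, 0 passed with library totals and 1 with Spearman's rho.

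Libraries of the same replicate number did not deviate together (r from −0.26 to 0.30, in no comparison all over 0.1). The library names in the titles carry other numbers for some replicates, and pairing by those was not tested. With the replicate number as a block, 14 genes passed for averaged PFOS and 3861 for Pectin_PFOS against Pectin, with 4 of the 8; Abca1 in the pectin interaction became −0.22.

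Leaving out single libraries gave 2 to 147 genes in Inulin_PFOS against Inulin, 1356 to 3850 in Pectin_PFOS against Pectin (3271 with all), lowest without Pectin_PFOS replicate 1, 0 to 794 in Inulin against Control, 55 to 530 in Pectin against Control, 75 to 574 in Inulin_PFOS against PFOS and 1269 to 2900 in Pectin_PFOS against PFOS. The inulin interaction gave 0 to 766, the pectin interaction 0 to 4, averaged PFOS 8 to 41, and pectin minus inulin 1352 to 4589 (4008 with all). Of the 8 genes, 0 to 1 passed in Pectin against Control and in Pectin_PFOS against PFOS, and 2 to 5 for pectin minus inulin, with 2 without Inulin replicate 1. Marker relations numbered 0 to 6.

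Signs turned for uncalled genes. Under library totals Npc1l1 became 0.011 and Nr1h3 0.046 in PFOS against Control, Abca1 −0.0073 in Inulin_PFOS against Inulin, Nr1h3 −0.15 in Pectin_PFOS against Pectin, Mylip −0.012 in Inulin against Control, and Abca1 −0.019 and Nr1h3 −0.053 in Pectin against Control. Npc1l1 became −0.11 and Nr1h3 −0.18 in Inulin_PFOS against PFOS, Abcg5 −0.015, Abca1 −0.093 and Nr1h3 −0.24 in Pectin_PFOS against PFOS, and Abca1 −0.074 and Nr1h3 −0.19 in the pectin interaction.

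Without single libraries, values crossed 0 in PFOS against Control for Npc1l1 (−0.21 to 0.0003) and Nr1h3 (−0.20 to 0.092), in Inulin_PFOS against Inulin for Abca1 (−0.34 to 0.91) and Soat2 (−0.20 to 0.16), and in Pectin_PFOS against Pectin for Scarb1 (−0.090 to 0.56) and Mylip (−0.12 to 0.51). They did so in Inulin against Control for Abca1 (−1.30 to 0.17) and Mylip (−0.072 to 0.54), and in Pectin against Control for Abca1 (−0.094 to 0.62), Soat2 (−0.022 to 0.23) and Nr1h3 (−0.13 to 0.18). Soat2 in Inulin_PFOS against PFOS ranged from −0.26 to 0.18, and in Pectin_PFOS against PFOS Abca1 ranged from −0.27 to 0.49 and Mylip from −0.25 to 0.22. In the inulin interaction Npc1l1 ranged from −0.35 to 0.0038 and Abca1 from −0.97 to 0.49, and in the pectin interaction Abca1 ranged from −0.41 to 0.45 and Nr1h3 from −0.015 to 0.27. For pectin minus inulin, Abca1 ranged from −0.32 to 0.92 and Scarb1 from −0.48 to 0.16.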
